A study of Mus musculus with 8 samples.

Results

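Circular RNAs (circRNAs) spanning 50 kb or more are closed loops of RNA whose joined splice sites lie at least 50000 bases apart in the genome. They were taken from all non-control array probes by name: the files name a circRNA by chromosome, start, end and strand, and end minus start was 50000 or more for 4554 of the 37852 circRNAs (12.03%), among 150305 non-control probes in all. The rule uses positions only and no measured level. The spans ran from 50001 to 486424 bases with a median of 80049 bases; 1555 were 100 kb or longer and 401 were 200 kb or longer. They were measured in spinal cord of female mice aged 8 weeks, 4 with a contusion, an injury in which a blow crushes the cord without cutting it, and 4 controls, with RNA of 1 mouse per array by the design text, which places the tissue around the injured site in the thoracic cord. No strain is given in the sources used here. The contusion titles say 3 days after injury, while the descriptions of contusion replicates 1, 2, 3 and 4 say 3, 4, 5 and 6 days, and the controls are sham-operated in the design text and normal cord in their descriptions. The groups are therefore contusion and control, with no split by day.

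A circRNA forms by back-splicing, in which a splice donor is joined to an acceptor that lies upstream of it in the same gene instead of to the next acceptor downstream. The loop has no free ends, so exonucleases degrade it slowly, and neural tissue is known for holding many circRNAs of neuronal genes. The span is the distance in the genome between the joined sites and not the length of the loop, because introns in between can be spliced out; no exon annotation was used here, so the lengths of the loops were not determined. A probe across the junction is designed to read the loop, since the linear mRNA lacks that junction.

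The probes that carry the main contrasts are shown here because each is the loop's identity: 60 bases, 5′ to 3′ as the files give them, with the bases before the estimated back-splice junction (the donor side) in capitals and those after it (the acceptor side, where the loop starts) in lower case. The junction was estimated from the bases shared by probes of circRNAs that share a start or an end, and where both sides gave an estimate (1037 long circRNAs) these fell within 4 bases of each other for 94.5%. Bases that fit both sides leave the junction open by a few positions, so probes of 1 start can be marked slightly apart, as at the AAG before both Iqgap2 starts. Positions are those of the files, whose genome build is not given in the sources used here. In Dab1, the gene of an adaptor protein of the reelin pathway of neuron positioning, the first 4 of the following loops end at the same donor and start at 4 different acceptors, and the third shares its start with both of the loops listed last. By this estimate 8 to 10 bases lie on the donor side here, so most of each probe is sequence that the linear mRNA of the gene can also hold; how much linear mRNA these probes bind was not tested.
chr4:103951834-104280580 (+ strand): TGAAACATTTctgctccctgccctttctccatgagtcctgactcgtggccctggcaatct
chr4:103958553-104280580 (+ strand): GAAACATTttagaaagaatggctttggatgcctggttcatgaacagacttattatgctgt
chr4:104161879-104280580 (+ strand): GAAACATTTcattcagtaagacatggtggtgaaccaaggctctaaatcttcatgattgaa
chr4:104177846-104280580 (+ strand): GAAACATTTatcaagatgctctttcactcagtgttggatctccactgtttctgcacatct
chr4:104161879-104289968 (+ strand): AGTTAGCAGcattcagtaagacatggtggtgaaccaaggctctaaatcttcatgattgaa
chr4:104161879-104479275 (+ strand): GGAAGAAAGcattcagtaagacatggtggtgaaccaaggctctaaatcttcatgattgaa
In Mctp1, the gene of a calcium-binding membrane protein with C2 domains, the first 4 loops share a start and the next pair share another start.
chr13:76741294-76806262 (+ strand): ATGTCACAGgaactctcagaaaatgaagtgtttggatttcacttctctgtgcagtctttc
chr13:76741294-76825797 (+ strand): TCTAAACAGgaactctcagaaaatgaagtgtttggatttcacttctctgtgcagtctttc
chr13:76741294-76827801 (+ strand): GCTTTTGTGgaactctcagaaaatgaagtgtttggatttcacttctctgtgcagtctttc
chr13:76741294-76891614 (+ strand): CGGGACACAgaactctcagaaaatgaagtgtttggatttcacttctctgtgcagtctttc
chr13:76731771-76806262 (+ strand): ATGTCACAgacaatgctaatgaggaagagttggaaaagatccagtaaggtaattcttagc
chr13:76731771-76827801 (+ strand): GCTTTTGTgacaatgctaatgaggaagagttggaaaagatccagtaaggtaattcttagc
In Iqgap2, the gene of a scaffold protein that binds calmodulin and small GTPases, the 6 long circRNAs combine 3 donors with 2 starts.
chr13:95746438-95837923 (- strand): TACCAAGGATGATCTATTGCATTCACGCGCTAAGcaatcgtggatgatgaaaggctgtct
chr13:95763246-95837923 (- strand): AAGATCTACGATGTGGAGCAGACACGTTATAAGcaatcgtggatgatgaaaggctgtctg
chr13:95749993-95837923 (- strand): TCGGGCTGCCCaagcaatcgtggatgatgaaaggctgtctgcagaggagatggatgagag
chr13:95746438-95887372 (- strand): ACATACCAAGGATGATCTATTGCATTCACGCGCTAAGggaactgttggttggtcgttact
chr13:95763246-95887372 (- strand): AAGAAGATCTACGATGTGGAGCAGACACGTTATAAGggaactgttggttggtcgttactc
chr13:95749993-95887372 (- strand): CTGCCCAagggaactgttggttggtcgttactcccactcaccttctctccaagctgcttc
Diaph3, the gene of a formin that assembles actin filaments in dividing cells, had increases in all its tested long loops; the third loop shown shares its donor with the first.
chr14:86810336-86918864 (- strand): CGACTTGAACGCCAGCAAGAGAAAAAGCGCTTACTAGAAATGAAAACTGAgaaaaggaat
chr14:86772086-86835101 (- strand): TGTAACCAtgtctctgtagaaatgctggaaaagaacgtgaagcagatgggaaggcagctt
chr14:86810336-86910123 (- strand): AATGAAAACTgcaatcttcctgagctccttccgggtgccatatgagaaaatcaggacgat

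A level is the log2 processed intensity of a probe minus the array's 75th percentile. A difference is the contusion mean minus the control mean of these log2 levels (4 arrays each), ± limma's standard error. The share of probes well above background ran from 72.9% to 75.4% over the arrays, no spot was saturated, and arrays of 1 group correlated at 0.983 to 0.991 over the long circRNAs. A circRNA was tested when 4 or more of the 8 arrays had its probe well above background, and called at an adjusted p under 0.05 over all 89088 features tested. Markers of other cells moved with the groups: all 8 neuron markers were called lower in contused cord, and all 8 of monocytes and macrophages, all 6 of dividing cells, 4 of 4 of red blood cells and 3 of 5 of microglia were called higher. The mean level of the neuron markers lay at 5.32 to 5.54 in contused and 6.03 to 6.18 in control cord, and that of the macrophage markers at 4.51 to 4.82 in contused and 2.63, 1.89, 2.63 and 0.90 in control replicates 1, 2, 3 and 4. Skeletal muscle markers stood at 3.94 and 1.97 in contusion replicates 1 and 2, against -0.20 and -0.43 in the other contused cords and -0.88 to 1.03 in controls. Neutrophil markers stood at 3.42 and 3.66 in control replicates 1 and 3 and at 1.21 and 2.21 in replicates 2 and 4. The contused cords had 2.14 to 3.90, and of the controls only replicate 2 lay below that range. The part of these cell types in the results below was not tested, and fewer cells of a type cannot be told apart from less RNA per cell.

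Of the 4554 long circRNAs, 4245 (93.2%) passed the filter, against 94.2% of the shorter ones. Of the long circRNAs 4035 were above background on all 8 arrays and 173 on none. Only 4 were above background on all contusion arrays and no control array, and 4 others on all control arrays and no contusion array. Most long circRNAs were thus measured in both groups, and the question was by how much their levels differed.

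Long circRNAs moved mainly downwards after contusion. Of the 4245 tested, 1594 (37.6%) were called lower and 391 (9.21%) higher, where the background over all features tested was 23.9% lower and 14.7% higher. Of the 31370 shorter circRNAs 24.1% were called lower and 17.2% higher. The median difference was -0.17 for long circRNAs, -0.03 for shorter circRNAs and -0.05 for all features, and the median standard error of the long circRNAs was 0.09. The groups did not overlap for 2038 long circRNAs, against a background of 38.7% of all features and 43.1% of shorter circRNAs. Changes of at least 2-fold were rare in both directions: 51 long circRNAs were called higher and 59 lower by that much, where the background of all features was 3.36% higher and 1.48% lower, and that of shorter circRNAs 2.87% higher and 0.488% lower. The array medians of the long circRNAs lay at -1.73 to -1.68 in contused and -1.55 to -1.51 in control cord, with no overlap, while those of shorter circRNAs lay at -1.27 to -1.22 in contused and -1.24 to -1.19 in control cord and overlapped. With the slide as a block, 331 were called higher and 1473 lower. Without contusion replicates 1 and 2, which had the muscle markers, 285 were called higher and 1280 lower, and without control replicates 1 and 3 the counts were 378 higher and 1399 lower. Slide and day after injury, as the descriptions give it, cannot be told apart: contusion replicate 1 (day 3) is on slide 1 and replicates 2, 3 and 4 (days 4, 5 and 6) are on slide 2.

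The share of lower calls went up with span. It was 34.6% of the 2792 circRNAs of 50 to 100 kb, 41.2% of the 1078 of 100 to 200 kb and 49.3% of the 375 of 200 kb or more, and the median differences of these classes were -0.14, -0.20 and -0.30. Below the limit the share was 22.3% under 1 kb, 21.1% from 1 to 10 kb and 27.5% from 10 to 50 kb. Higher calls made up 10.5%, 6.77% and 6.93% of the 3 long classes, and none of the circRNAs of 200 kb or more was called higher by 2-fold, while 13 were called lower by as much. The host mRNAs followed the same order: per circRNA, the median difference of the mRNA of the gene was -0.23, -0.37 and -0.46 in the 3 long classes.

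**Figure D1:**
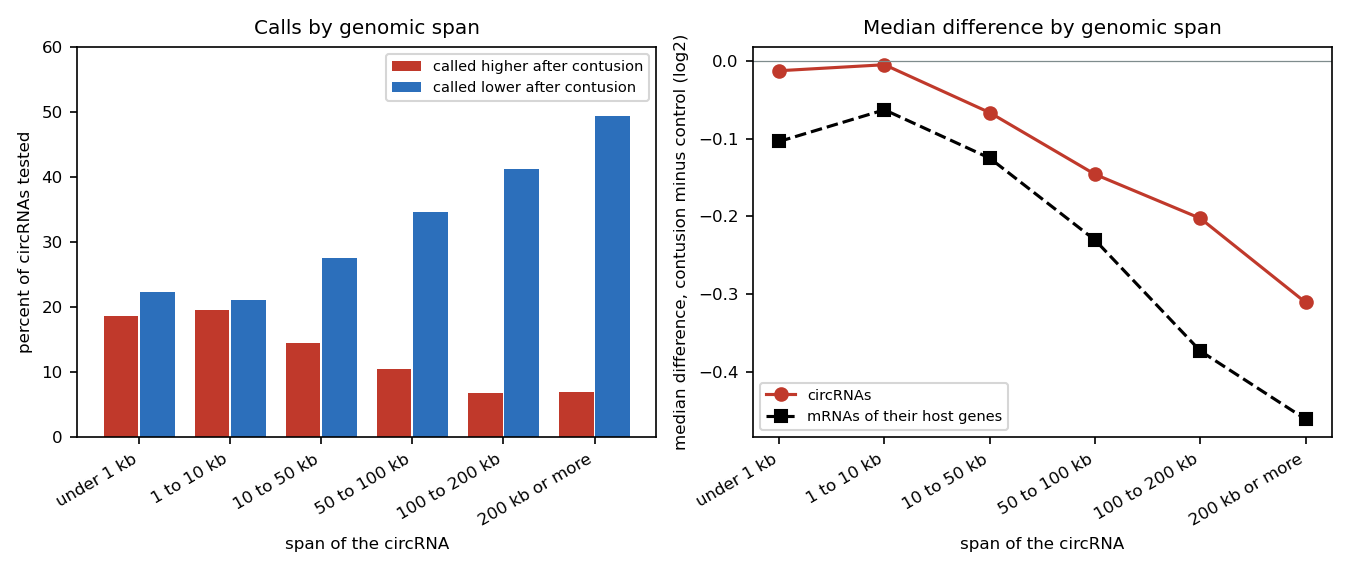
Left, percent of tested circRNAs called higher (red) and lower (blue) after contusion by span of the circRNA. Right, median difference (contusion minus control, log2) of the circRNAs (red circles) and of the mRNAs of their host genes (black squares, taken once per circRNA) in the same span classes; lower calls make up 49.3% of circRNAs of 200 kb or more against 22.3% of those under 1 kb.

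At the limit itself nothing stood out. Just inside it, a circRNA of Vta1, of endosomal sorting, spanned 50001 bases and differed by 0.01 ± 0.10, one of Ctif, a translation initiation factor gene, spanned 50004 bases and differed by -0.41 ± 0.07, and one of the ubiquitin ligase gene Hace1 spanned 50023 bases and differed by -0.16 ± 0.08. Just outside it, circRNAs of Gphn (49994 bases), Smoc2 (49984 bases) and Sntg2 (49981 bases) differed by -0.60 ± 0.07, 0.44 ± 0.47 and 0.51 ± 0.11.

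Long circRNAs need long genes, and their hosts were compared by position. Of the 4554 long circRNAs 4352 lay inside exactly 1 protein-coding gene of the RefSeq table of GRCm38.p6, 3 inside several and 199 inside none. Inside a gene lay 95.6% of them, against 18.2% after a shift of 1000000 bases, and 99.8% of the 3392 whose host has a known strand carried that strand. The median length of the host genes was 227494.5 bases, against 49733 bases for the hosts of shorter circRNAs. The mRNAs of the 1037 measured hosts were themselves lower: 48.0% were called lower and 15.3% higher, with a median of -0.23, against 28.3% lower and 25.9% higher for the 5635 genes that hosted shorter circRNAs only and 21.9% lower and 26.7% higher for the 11474 other mRNAs. In the 992 hosts that had both long and shorter tested circRNAs, the median long circRNA was the lower in 449 hosts (45.3%), and the median difference between the classes within a host was 0.01. The 143 tested long circRNAs in no protein-coding gene had a median difference of -0.03. Of these, 24 (16.8%) were called lower and 20 (14.0%) higher, against 23.9% and 14.7% over all features tested.

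Circles of genes for synapse adhesion and scaffolding fell together in number. Of 148 tested long circRNAs in 25 such hosts, 106 (71.6%) were called lower and 0 higher by limma (114 lower and 1 higher at an unadjusted p under 0.05). Over all features tested 23.9% were called lower and 14.7% higher. The median was -0.48 against -0.05 over all features tested, and 21 of the 24 measured host mRNAs were lower. The neuron marker mRNAs were lower in the same cords, as given above. Loops given by position in this and the following lists were picked for the lowest adjusted p among those called. They do not stand for their list. Lrfn5 encodes a synaptic adhesion protein: its circRNA chr12:61669480-61785012 had levels of -1.88, -1.89, -1.92 and -1.69 in contused and -0.97, -1.02, -1.03 and -0.83 in control cord, a difference of -0.89 ± 0.08 (adjusted p = 0.000173). All contused cords lay below all control cords. All 11 circRNAs of the presynaptic adhesion gene Nrxn3 were lower (-0.90 to -0.50), as were all 8 of Cntnap5a. The 7 circRNAs of Dlg1 and the 3 of Magi1, both genes of scaffold proteins, were not called and differed by 0.02 to 0.25 and 0.06 to 0.19.

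Circles of neurotransmitter receptor genes gave 43 lower (79.6%) and 1 higher (1.85%) of 54, with a median of -0.46. Over all features tested the shares were 23.9% lower and 14.7% higher. Grin2a encodes a subunit of the NMDA glutamate receptor, and all 6 of its long circRNAs were lower (-0.97 to -0.67). The loop chr16:9644099-9761983 of Grin2a had levels of -1.52, -1.33, -1.38 and -1.54 in contused and -0.75, -0.58, -0.73 and -0.62 in control cord (-0.77 ± 0.08, adjusted p = 0.000227), without overlap. The single higher loop of this list lay in Grik1, a kainate receptor gene, which had 1 of 3 higher and 1 lower.

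Ion channel genes gave 85 lower (77.3%) and 1 higher (0.91%) of 110, against 23.9% and 14.7% over all features tested, with a median of -0.56. All 8 circRNAs of Kcnh7, a voltage-gated potassium channel gene, were lower by -1.25 to -0.93, and all 9 of the calcium release channel gene Ryr2 by -0.99 to -0.60. The Kcnh7 loop chr2:62764571-62837280 had levels of -1.14, -0.88, -1.14 and -1.05 in contused and -0.05, 0.07, 0.21 and -0.07 in control cord. Its mRNA differed by -1.14 ± 0.08, close to the -1.09 ± 0.09 of the loop (adjusted p = 0.000151). The one loop called higher on this list was that of Itpr2, an inositol trisphosphate receptor gene, at 0.46.

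Genes of transmitter release gave 75 lower (74.3%) and 0 higher of 101 by limma (85 lower and 1 higher at an unadjusted p under 0.05). The shares over all features tested were 23.9% lower and 14.7% higher. The median of this list was -0.52. Syt1 encodes the calcium sensor of synaptic vesicles, and all 9 of its long circRNAs were lower (-1.15 to -0.81). The Syt1 loop chr10:108583874-108902315 had levels of 1.19, 1.04, 1.11 and 1.13 in contused and 2.02, 2.18, 2.12 and 2.02 in control cord (-0.97 ± 0.07, adjusted p = 0.000105). The active zone gene Rims2 had 21 of 24 lower, and chr15:39469155-39535981 of Rims2 fell by 0.85 ± 0.06 (adjusted p = 0.000119). The 4 circRNAs of the active zone gene Erc1 were not called (-0.05 to 0.29).

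RNA-binding genes gave 33 lower (46.5%) and 6 higher (8.45%) of 71, against 23.9% and 14.7% over all features tested, and the directions split by gene. The neuronal splicing regulator Rbfox1 had 17 of 19 lower with a median of -0.57. All 6 higher circRNAs came from Ptbp3, a polypyrimidine tract-binding splicing repressor gene (4 of 4, 0.78 to 1.35), and Rbms1, of a single-strand nucleic acid binding protein (2 of 2). The Ptbp3 loop chr4:59476704-59546182 had levels of 0.88, 0.73, 0.92 and 1.28 in contused and -0.32, -0.42, -0.22 and -0.63 in control cord (1.35 ± 0.13, adjusted p = 0.000238), and the Ptbp3 mRNA differed by 1.13 ± 0.07.

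Cytoskeletal genes gave 19 lower (41.3%) and 3 higher (6.52%) of 46, against 23.9% and 14.7% over all features tested. All 3 higher ones lay in Dclk1, the gene of a microtubule-associated kinase. The Dclk1 loop chr3:55450967-55516986 had levels of 0.87, 0.82, 0.97 and 0.98 in contused and 0.07, 0.31, 0.30 and 0.00 in control cord (0.74 ± 0.09, adjusted p = 0.000514). The Dclk1 mRNA did not pass the test (-0.25 ± 0.10, adjusted p = 0.0826), and the loop was called above it by 1.00 ± 0.14. The 2 circRNAs of Ank3, the gene of the anchor protein ankyrin G of the axon initial segment, were both lower.

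Among glial lists, oligodendrocyte genes gave 18 lower (48.6%) and 3 higher (8.11%) of 37, with a median of -0.29. Over all features tested 23.9% were lower and 14.7% higher. The lower loops of this list came mainly from the cation exchanger gene Slc24a2 (6 of 9), Nkain2 (5 of 6) and Edil3 (4 of 5). The higher ones lay in Slc44a1 (2 of 3) and Zfp536 (1 of 2). The Edil3 loop chr13:88944820-89131855 fell by 0.55 ± 0.07 (adjusted p = 0.000677). Astrocyte genes gave 5 higher (17.9%) and 7 lower (25%) of 28, near the shares over all features tested, and the calls came from few genes: the glypican gene Gpc5 had 5 of 6 lower, with chr14:115399146-115552335 at -0.78 ± 0.08, while the transcription factor gene Glis3 had 4 of 5 higher (up to 1.12) and 1 lower. The astrocyte markers themselves had 3 of 5 called higher and 1 lower, and the oligodendrocyte markers had 1 of 6 called lower and 0 higher.

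The phagocyte and leukocyte list gave 11 lower (19.0%) and 3 higher (5.17%) of 58, both below the shares over all features tested (23.9% and 14.7%). Of the 11 lower ones 9 lay in Dpyd, which encodes the first enzyme of pyrimidine breakdown, and 2 in the histone deacetylase gene Hdac9. The Dpyd loop chr3:118915205-118999385 had levels of -4.42, -5.31, -4.90 and -4.95 in contused and -3.45, -3.41, -3.74 and -3.32 in control cord, a difference of -1.42 ± 0.18 (adjusted p = 0.000624), and was above background on 2 contusion arrays and all control arrays. The Dpyd mRNA did not pass the test (0.15 ± 0.10, adjusted p = 0.28). Higher were 1 loop of Runx1, a transcription factor gene of blood cells (chr16:92613599-92668812, 1.00 ± 0.17, adjusted p = 0.00217), 1 of Mef2c and 1 of Hdac9.

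Matrix and vessel genes and transcription genes held more higher than lower calls. Over all features tested 14.7% were called higher and 23.9% lower. Matrix and vessel genes gave 9 higher (42.9%) and 3 lower (14.3%) of 21 with a median of 0.35. All 9 higher ones lay in Ltbp1, whose protein binds latent transforming growth factor beta, and all 3 lower ones in the transcription factor gene Ebf1. The Ltbp1 loop chr17:75179037-75274034 had levels of -2.40, -2.30, -2.27 and -2.51 in contused and -3.32, -3.55, -2.94 and -3.09 in control cord (0.86 ± 0.13, adjusted p = 0.00148). Transcription and chromatin genes gave 21 higher (33.3%) and 1 lower (1.59%) of 63 with a median of 0.10. Of the higher ones 13 came from Tcf4 alone. All 13 tested loops of Tcf4, a basic helix-loop-helix factor gene, were higher by 0.39 to 0.69, and the Tcf4 mRNA by 0.26 ± 0.07 (adjusted p = 0.0195). Cell division genes gave 5 higher (31.25%) and 1 lower (6.25%) of 16. All 5 higher ones lay in Diaph3, while the other 3 hosts gave 0 higher by limma (0 also at an unadjusted p under 0.05). The median of this list was 0.09, but -0.013 with normexp and quantile scaling and -0.036 with the slide as a block, where 3 were higher. The lower one lay in Cit, the gene of a kinase of cytokinesis, at -0.77 ± 0.11.

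**Figure D2:**
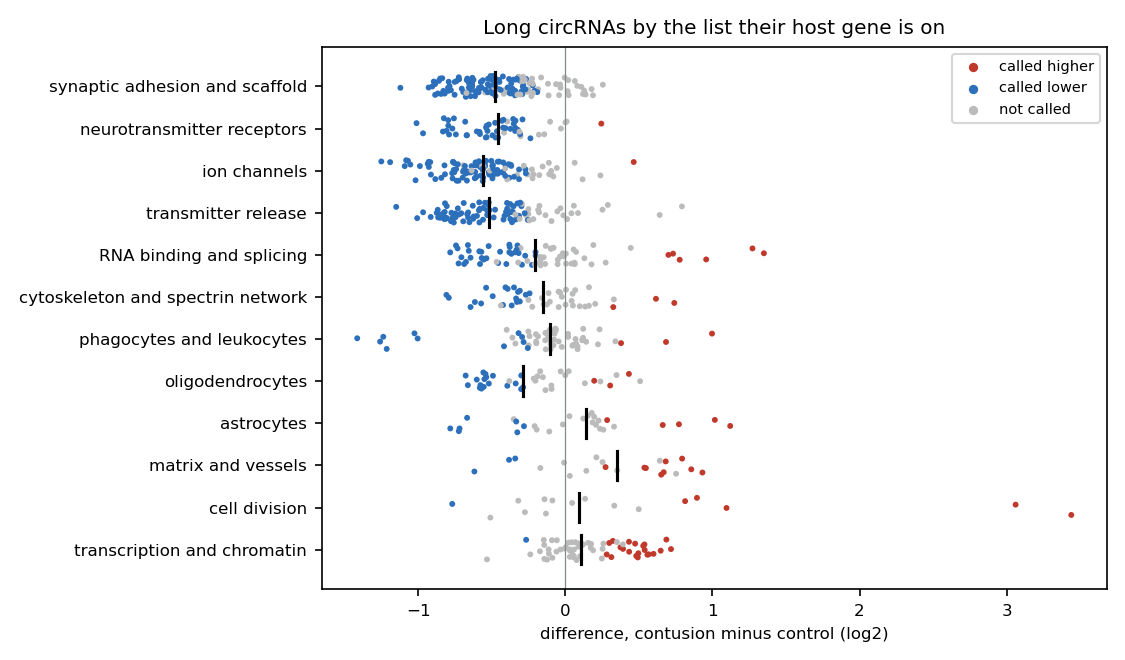
Difference (contusion minus control, log2) of each tested long circRNA, by the functional list its host gene is on; red points were called higher, blue points lower and grey points were not called, and the black bar is the list's median. The 4 lists of neuronal function hold 309 lower and 2 higher of 413 circRNAs, where 23.9% of all features tested were called lower and 14.7% higher. The 5 red points of the cell division list all lie in Diaph3.

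The largest increases, ranked by the fitted difference, came from few genes. The Diaph3 loop chr14:86810336-86918864 had levels of -2.67, -2.83, -2.42 and -2.39 in contused and -4.96, -6.58, -5.62 and -6.89 in control cord, and only 1 control array was above background there. With control values under the lowest signal that counts as above background raised to that signal, it was at least 7.10-fold higher (adjusted p = 0.000379 for the levels as measured). The Diaph3 loop chr14:86772086-86835101 was above background on every contusion array but on 0 control arrays, and was at least 3.32-fold higher, a bound set in the same way. It passed the filter through the contusion arrays alone. Its adjusted p (0.00105 by limma, for the levels as measured) is therefore no separate support. The other 3 Diaph3 loops, which share another start, were higher by 0.81 to 1.10, and the Diaph3 mRNA by 1.48 ± 0.14. In Bard1, whose protein pairs with BRCA1, chr1:71030508-71089527 had levels of -2.91, -3.31, -2.79 and -3.06 in contused and -4.34, -5.10, -5.03 and -4.86 in control cord (1.82 ± 0.18, adjusted p = 0.000239). Spidr, a DNA repair scaffold gene, and Myh9, the gene of a nonmuscle myosin heavy chain, completed the 10 largest with 1.73 ± 0.18 (adjusted p = 0.000292) and 1.64 ± 0.20 (adjusted p = 0.000477). The mRNAs of Bard1, Spidr and Myh9 rose as well, by 1.65 ± 0.11, 2.50 ± 0.16 and 1.23 ± 0.09. In the second limma fit described below, the Spidr loop was called below its mRNA (-0.77 ± 0.13, adjusted p = 0.00524). With normexp background correction, which adds the same offset to every spot, and quantile scaling, all 10 largest increases were called but measured 0.13 to 1.46. Among them were 0.70 for the first Diaph3 loop, 0.32 for the second and 0.41 for Bard1.

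Iqgap2 gave 4 of the 10 largest increases. The loop chr13:95746438-95837923 had levels of 0.05, 0.01, 0.00 and -0.04 in contused and -1.76, -2.46, -1.65 and -2.36 in control cord (2.07 ± 0.18, adjusted p = 0.000172). The contused cords lay close together, while control replicates 1 and 3, which had the higher macrophage and neutrophil markers of the controls, lay above replicates 2 and 4. The part of those cells in the level was not tested. Without control replicates 1 and 3 this loop differed by 2.42, and with normexp and quantile scaling by 1.38. The Iqgap2 mRNA rose by 1.03 ± 0.09. Of the 6 Iqgap2 loops shown above, 5 were higher by 1.59 to 2.43. The remaining one, chr13:95749993-95887372, had levels of -1.33, -2.05, -1.09 and -1.30 in contused and -1.10, -1.57, -1.50 and -1.42 in control cord, which overlapped (-0.04 ± 0.21, adjusted p = 0.885), although its donor and its start were each used by loops that were higher.

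**Figure D3:**
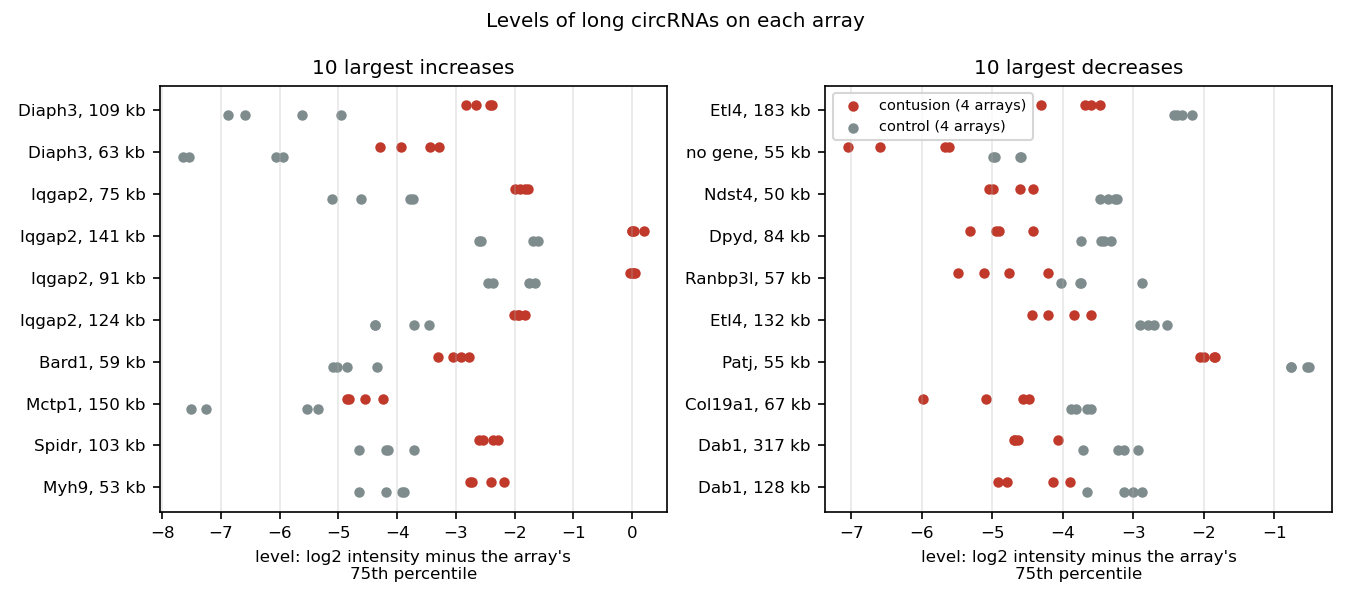
Level (log2 intensity minus the array's 75th percentile) on each array of the 10 long circRNAs with the largest increases (left) and the 10 with the largest decreases (right); red points are the 4 contusion arrays and grey points the 4 control arrays, and each row gives the host gene and the span. Members were chosen for groups that do not overlap; the control points of Diaph3 lie near background.

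The largest decreases were smaller than the largest increases, also with normexp and quantile scaling, where all 10 were called and measured -0.77 to -0.13. The Etl4 loop chr2:20529959-20713448 had levels of -4.31, -3.48, -3.60 and -3.68 in contused and -2.41, -2.17, -2.31 and -2.38 in control cord (-1.45 ± 0.17, adjusted p = 0.000463). A second Etl4 loop with the same start, chr2:20529959-20662096, fell by 1.29 ± 0.18 (adjusted p = 0.00091), and the Etl4 mRNA fell by 1.05 ± 0.10. A loop in no protein-coding gene, chr5:99680658-99735999, was above background on all control and 0 contusion arrays and was at least 1.37-fold lower in contused cord. It passed the filter through the control arrays alone. Its adjusted p (0.00781 by limma, for the levels as measured) is therefore no separate support. Ndst4, a heparan sulfate sulfotransferase gene, had a loop at -4.99, -4.42, -4.60 and -5.04 in contused and -3.36, -3.23, -3.46 and -3.26 in control cord (-1.44 ± 0.15, adjusted p = 0.000255), and its mRNA fell by 1.15 ± 0.17. Patj, a gene of cell polarity, had a loop at -1.86, -2.05, -1.84 and -1.99 in contused and -0.77, -0.51, -0.77 and -0.53 in control cord (-1.29 ± 0.09, adjusted p = 0.000108). The 4 tested Patj loops ranged from -1.29 to 0.60, with 1 called lower and 1 higher. Loops of Ranbp3l (-1.30 ± 0.32, adjusted p = 0.013), Col19a1 (-1.29 ± 0.31, adjusted p = 0.0107) and Dpyd were above background on only 2 contusion arrays each. The Ranbp3l loop was not called without contusion replicates 1 and 2, where it differed by -0.89 (adjusted p = 0.0972), and the Col19a1 loop was not called without control replicates 1 and 3 (adjusted p = 0.0645). The remaining pair of the 10 largest decreases were loops of Dab1.

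In Dab1 each start site with a call had all its loops called in the same direction, and the other start sites had no call. Probes of loops that share a start also share bases, so these loops are not independent of one another. Dab1 had 19 tested long circRNAs, 2 higher and 5 lower, and its mRNA fell by 0.51 ± 0.07 (adjusted p = 0.000763). The 3 loops that start at position 104161879 all fell, by 1.24 to 1.28: chr4:104161879-104280580 had levels of -4.40, -4.15, -4.52 and -4.07 in contused and -3.11, -2.92, -3.26 and -2.90 in control cord (-1.24 ± 0.13, adjusted p = 0.000259). The 2 loops that start at 103958553 rose, and chr4:103958553-104280580, which ends at the same donor, had levels of -1.55, -1.43, -1.28 and -1.08 in contused and -1.60, -2.20, -1.91 and -2.22 in control cord (0.65 ± 0.16, adjusted p = 0.013). Its groups did not overlap, although contusion replicate 1 and control replicate 1 lay close together. The 4 loops that start at 103951834 included the brightest probes of all long circRNAs and did not pass the test: chr4:103951834-104280580 had levels of 6.96, 7.05, 7.05 and 7.08 in contused and 6.84, 7.09, 7.13 and 6.95 in control cord (0.03 ± 0.08, adjusted p = 0.793). This loop was called above its mRNA by 0.54 ± 0.10 (adjusted p = 0.00668). The 2 loops that start at 104479074 fell by 0.70 and 0.92.

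Mctp1 showed the same kind of split. Of its 13 tested long circRNAs 4 were higher and 3 lower, and its mRNA fell by 0.49 ± 0.09 (adjusted p = 0.00354). All 4 higher ones start at position 76741294, and these were all the tested loops with that start. The clearest, chr13:76741294-76825797, had levels of -4.66, -4.45, -4.39 and -4.43 in contused and -5.43, -5.32, -5.20 and -5.33 in control cord (0.84 ± 0.08, adjusted p = 0.000222), with 3 control arrays above background. The loop chr13:76741294-76891614, with 0 control arrays above background, was at least 1.77-fold higher. It passed the filter through the contusion arrays alone, so its call (adjusted p = 0.0217 by limma, for the levels as measured) is no separate support. This call was lost with the slide as a block (adjusted p = 0.0863), with the replicate block, without control replicate 4, and without contusion replicate 2 or 4 or replicates 1 and 2 together. The 3 loops that start at 76731771 did not pass the test (0.01 to 0.26). The brightest Mctp1 probe, of chr13:76801359-76891614, had levels of 1.57, 2.17, 1.66 and 1.49 in contused and 2.31, 2.59, 2.31 and 2.34 in control cord (-0.67 ± 0.15, adjusted p = 0.0093). The probes of loops that share a start also share their lower-case bases, so their signals are not independent of one another.

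**Figure D4:**
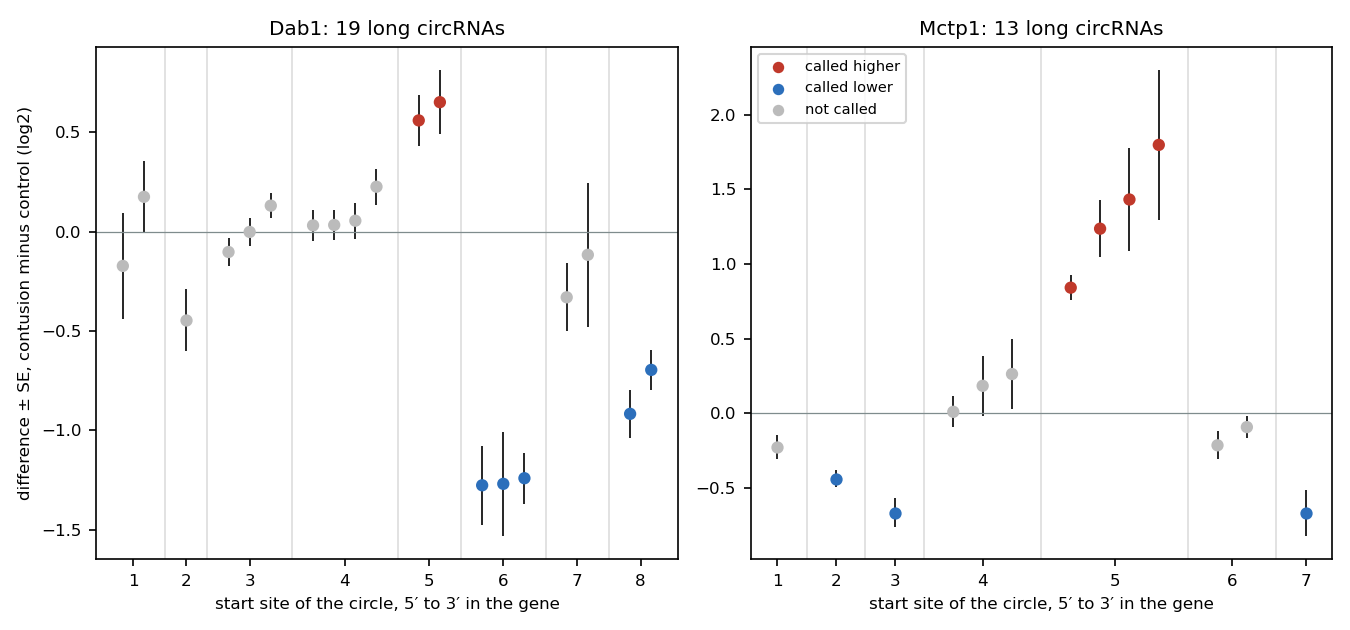
Difference ± standard error (contusion minus control, log2) of every tested long circRNA of Dab1 (left, 19) and Mctp1 (right, 13), grouped by the start site of the loop in the order 5′ to 3′ along the gene; red was called higher, blue lower and grey not called. All 4 Mctp1 loops of start site 5 were called higher, and all 3 Dab1 loops of start site 6 lower.

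The tested long circRNAs that lie inside 1 gene came from 1048 genes, of which 412 had a single one. Of the 636 with 2 or more, 338 held a lower call, 130 a higher call and 26 both. For 2670 pairs of loops of 1 gene that share a start, the median gap between their differences was 0.10 and 10 pairs were called in opposite directions. For 2069 pairs that share a donor the median gap was 0.15 with 21 opposite pairs, and for 12809 pairs that share neither it was 0.16 with 165 opposite pairs (1.29%). Over all 8381303 pairs of loops from different genes the median gap was 0.37 and 6.95% were called in opposite directions. Shared probe bases enter these gaps, and pairs of 1 gene are not independent.

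The hosts with most tested long circRNAs were neuronal genes and broadly expressed ones. Lrrc7, the gene of the postsynaptic density protein densin, had 35, of which 24 were lower and 1 higher (-1.11 to 0.33). Gphn, the gene of the inhibitory synapse scaffold gephyrin, had 31, of which 26 were lower (-0.88 to -0.20). Dennd1a, a membrane traffic gene, had 30 with 1 lower (-0.26 to 0.06). Atxn1, the gene of ataxin 1, had 29 with 8 lower and 1 higher. Anks1b, the gene of another postsynaptic density protein, had 29 with 19 lower and 1 higher, while its mRNA did not pass the test (0.05 ± 0.12, adjusted p = 0.751). Hosts with many higher loops, picked after their values had been seen, were Sh3kbp1, an endocytic adaptor gene (14 of 23, with 4 lower), Fndc3b (10 of 12) and the focal adhesion genes Lpp (8 of 21) and Tns3 (8 of 11). In Sh3kbp1 the 4 lower loops started at 159824475 (3 of 4) or 5 bases on, at 159824480 (1 of 2), while 14 of the 17 other loops were higher.

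Loops and mRNAs of the same gene were set against each other in a second fit, on the level of the circRNA minus that of the host mRNA probe on the same array, which compares differences and not levels. Over 4068 long circRNAs 78.9% had the sign of their host mRNA, with a correlation of 0.68 across circRNAs, which share hosts and arrays. The shorter circRNAs had the same sign in 79.3%, with a higher correlation of 0.81. Those of 200 kb or more had 79.8% and 0.54. Calls were counted among the 4068 long circRNAs. Of these, 406 (9.98%) were called above and 248 (6.10%) below their host mRNA, where the background over all 34305 circRNAs with a measured host was 7.23% above and 5.38% below, and over the shorter ones 6.86% above and 5.28% below. This split depended on the setting: with the slide as a block 255 were above and 278 below, and with normexp and quantile scaling 1531 were above and 559 below. Leaving out 1 array moved the count above to 625 without control replicate 1, 249 and 235 without control replicates 2 and 4, and 266 and 252 without contusion replicates 2 and 4. Among the 5 largest fitted positive differences, the loops measured above background on all 8 arrays were those of Arhgap24, a gene of a GTPase-activating protein (2.04 ± 0.21), and of the cAMP phosphodiesterase gene Pde4d (2.02 ± 0.17). The other 3 were the Mctp1 loop chr13:76741294-76891614, the Diaph3 loop chr14:86810336-86918864 and a loop of Cdk14, a cyclin-dependent kinase gene, which were above background on 0, 1 and 2 control arrays, so the size of their difference is not given. The Cdk14 loop itself was not called (1.39 ± 0.62, adjusted p = 0.113) and differed by 0.80 without contusion replicate 3. The Pde4d loop chr13:108860075-109032697 had levels of -3.21, -3.04, -3.64 and -3.06 in contused and -4.13, -4.68, -4.50 and -4.49 in control cord (1.21 ± 0.16, adjusted p = 0.000737), while the Pde4d mRNA fell by 0.80 ± 0.07. Of the 6 tested Pde4d loops 1 was called higher and 1 lower, with a median of -0.23. The Arhgap24 loop chr5:102500751-102552319 had levels of -3.14, -3.23, -3.17 and -2.70 in contused and -4.54, -4.55, -4.14 and -5.12 in control cord, while its mRNA fell by 0.51 ± 0.09.

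The largest negative differences came from genes whose mRNA rose while the loop stayed near its control level. The Phex mRNA, of a peptidase of phosphate balance, rose by 2.70 ± 0.29, while its loop chrX:157310869-157364349 had levels of -3.54, -3.04, -3.82 and -3.58 in contused and -3.37, -3.10, -3.24 and -3.37 in control cord (-0.22 ± 0.16, adjusted p = 0.306). This loop was called lower by limma without contusion replicate 2 (-0.37, adjusted p = 0.0293) and without contusion replicates 1 and 2 (-0.43, adjusted p = 0.0413). The Hmga2 mRNA, of a chromatin protein of growing cells, rose by 2.04 ± 0.16, while chr10:120404322-120473338 had levels of 1.36, 1.30, 1.14 and 1.40 in contused and 1.14, 1.25, 1.21 and 1.12 in control cord (0.12 ± 0.08, adjusted p = 0.257). Another Hmga2 loop, chr10:120416021-120473338, differed by 0.34 ± 0.13 (adjusted p = 0.0659). It was called higher by limma without contusion replicate 1 (0.46, adjusted p = 0.00707) and without contusion replicates 1 and 2 (0.46, adjusted p = 0.0234). A loop of the actin-associated gene Palld differed by 0.02 ± 0.22 while the Palld mRNA rose by 1.91 ± 0.13. In the tyrosine kinase gene Fer 19 of 21 loops were called below the mRNA, and in Anks1b 19 of 29. A loop of Camta1, on the transcription list, went the other way. This loop, chr4:151586415-151792502, had levels of 2.50, 2.33, 2.42 and 2.27 in contused and 1.5, 1.75, 1.74 and 1.66 in control cord (0.72 ± 0.08, adjusted p = 0.000424), and the Camta1 mRNA fell by 0.84 ± 0.10. The 3 tested Camta1 loops ranged from -0.53 to 0.72, with 1 called higher and 0 lower.

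**Figure D5:**
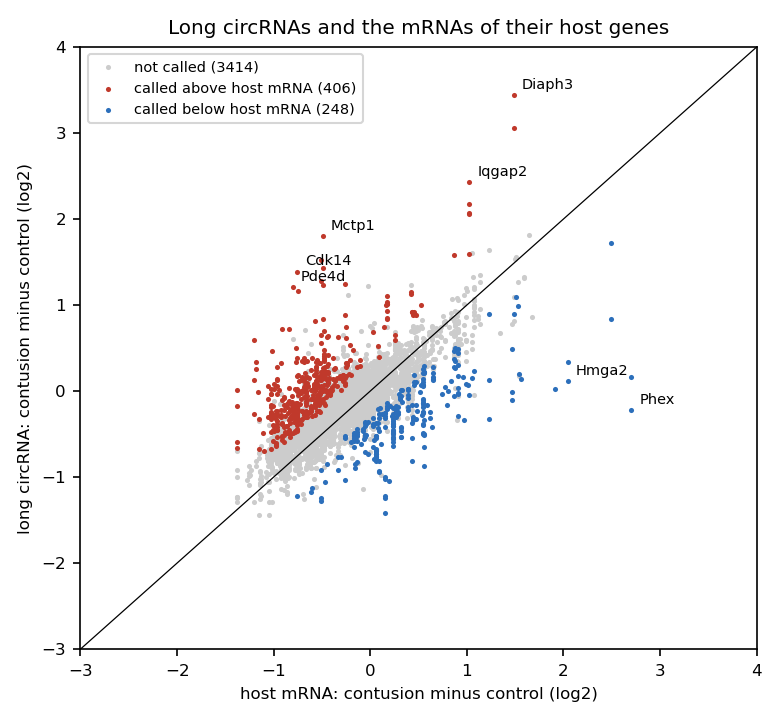
Difference (contusion minus control, log2) of each of 4068 long circRNAs against that of the mRNA of its host gene; red points (406) were called above and blue points (248) below the host mRNA, grey points (3414) were not called, and the line marks equal differences. For each gene written in the plot the name stands at 1 loop: those marked for Diaph3, Iqgap2 and Mctp1 lie above the line and those for Phex and Hmga2 below it, while other loops of Diaph3, Iqgap2 and Mctp1 lie below it.

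None of the 5 tested circRNAs of longest span and none of the 5 brightest was called higher. The longest, in the focal adhesion gene Lpp (chr16:24409782-24889959, 480177 bases), had levels of -3.61, -3.79, -4.05 and -5.03 in contused and -4.02, -3.74, -4.27 and -4.26 in control cord, which overlapped (-0.05 ± 0.30, adjusted p = 0.909). Loops of Ctnnd2, the gene of delta-catenin (474889 bases), and of Nkain2 (451254 bases) fell by 0.28 ± 0.08 (adjusted p = 0.0198) and 0.39 ± 0.09 (adjusted p = 0.0079), and those of the teneurin gene Tenm3 and of Celf2 did not pass the test. The Ctnnd2 call was lost with the replicate block (adjusted p = 0.074), without control replicate 4 (0.0559), without contusion replicate 4 (0.0503) and without control replicates 1 and 3 (0.0832). Besides the pair of Dab1 loops, the brightest probes were those of Prkce, a protein kinase C gene, of the transcription factor gene Nfix and of App, the gene of the amyloid precursor protein. The Prkce loop chr17:86426788-86496111 had levels of 6.26, 6.40, 6.12 and 6.13 in contused and 6.62, 6.92, 6.69 and 6.66 in control cord (-0.50 ± 0.09, adjusted p = 0.00382), the App loop fell by 0.40 ± 0.09 (adjusted p = 0.00729) and the Nfix loop did not pass the test (0.12 ± 0.07, adjusted p = 0.233). Probes differ in brightness for equal amounts of RNA, so brightness gives no order of abundance.

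By chromosome, lower calls outnumbered higher ones on every chromosome with a call. Chromosome 12 had 145 lower and 4 higher of 249 and the lowest median (-0.33), while chromosome 7 had 13 lower and 10 higher of 41 and a median of 0.04. Loops of 1 host lie on 1 chromosome, so the hosts above carry these counts.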

How the data were processed

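Total RNA of 8 spinal cords (4 contusion, 4 control; groups from the sample titles) was purified with a miRNeasy kit and labelled with Cy3 by the Low Input Quick Amp WT kit, per the labels' protocols. Each sample is a separate mouse by the design text. The deposited intensity values are Agilent Feature Extraction processed signals, from which the background of the same array was subtracted, per the file headers; no scaling between arrays is recorded there. Mean spot and local background intensity were also used, as were flags for outlier spots and for spots well above background (deposited values of 0 or 1, another kind of column). Feature Extraction is version 10.7 in the submitters' processing notes, which also name limma, and 12.0.3.1 in the header fields. The authors' deposited series table holds log2 values, which had a Spearman correlation of 1 with the log2 intensity of their array and column medians of 5.3993 to 5.4, so they are log2 and scaled alike, and served as an alternative only.

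Levels were scaled by subtracting, from each log2 intensity, the 75th percentile of non-control probes on that array; control and outlier spots were left out, and 4 of the long circRNAs lacked an array. Probes flagged well above background by 4 or more of 8 arrays were kept, each feature was read from its probe of highest mean level, and all features were fitted together with limma 3.58.1 (R 4.3.3; lmFit, eBayes, group only, two-sided, Benjamini-Hochberg adjustment over 89088 features). A second limma fit used circRNA minus host mRNA on 34305 circRNAs. The headers give mm9 for the array design, but of 27020 mRNA probes with such a position only 9.82% lay inside their own gene in GRCm38.p6, while circRNA positions fitted that assembly; its gene table was used for host names only, and strand came from RefSeq's promoter table. Tested on simulated data with 100 features changed by each size, the first fit recovered 73% of 2-fold changes and 26% of log2 changes of 0.5 (88988 features, 8 false calls). The second recovered 88% and 28% (34245 circRNAs). The data held far more calls, 13065 higher and 21309 lower in the first fit. The adjusted cutoff was thus stricter in the simulation, and these shares do not carry over to the real fits. The number of arrays limits the precision.

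Same-numbered replicates did not deviate together (correlations of -0.30, -0.01, -0.00 and -0.05), and the samples were not treated as pairs. Same-numbered arrays of the groups were on different slides, so these correlations cannot exclude pairing. Named circRNAs were the 10 largest increases and decreases among those called without overlap, the 5 longest and the 5 brightest. Also named were 3 on each side of the limit and the 5 hosts with most circRNAs. The 5 most above and the 5 most below their host mRNA were taken as well. From each host list 1 to 3 were named, those of lowest adjusted p among the called, so these were picked by their values. The other loops of Dab1, Mctp1, Iqgap2, Diaph3, Sh3kbp1, Patj and Etl4 were picked after their values were seen. So were the hosts Fer, Tns3, Fndc3b, Lpp and Tcf4. The members and lists were chosen with earlier results of these data known. Alternatives were the scaling, the authors' table, the filter, the choice of probe, the centring, slide and replicate blocks, each array left out, a limit of 100 kb, and, added after seeing the data, the arrays with high muscle or neutrophil markers left out. Probes of chromosome 18 are described without sequence.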

Additional observations from a re-analysis of the deposited data

Results flagged for a closer look

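In groups of 4 arrays, a sample was marked where its gap to the nearest of the others as a share of the group's range exceeded Dixon's 95% critical value, a rule that chance meets in about 1 of 20 groups. Of 148 groups of named long circRNAs, 9 were marked. Contusion replicate 1 stood apart at 0.20 for the Iqgap2 loop chr13:95746438-95887372 (the others at 0.00 to 0.03), at -4.07 for the Dab1 loop chr4:104161879-104479275 and at -3.59 for the Magi2 loop chr5:20550207-20661352. Contusion replicate 3 stood apart at 2.06 for the Edil3 loop chr13:89131674-89184863. Contusion replicate 4 stood apart at 1.31 for the Syt1 loop chr10:108583874-108642398 and at -2.70 for the Arhgap24 loop chr5:102500751-102552319. Control replicate 3 stood apart at -0.25 for the Ank3 loop chr10:69808416-69904270, and control replicate 4 at -0.76 for the Nkain2 loop chr10:31951119-32402373 and at -1.30 for the Gpc5 loop chr14:115369532-115552335.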

How the results depend on the processing

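The counts of long circRNAs called higher and lower stayed within 1.5 times of 391 and 1594 in every setting that kept the 50 kb limit, and the median difference stayed below 0. Leaving out each array in turn gave 307 to 405 higher, 1383 to 1567 lower, a median of -0.18 to -0.16, 235 to 625 above the host mRNA and 169 to 255 below. The median was -0.077 with normexp and quantile scaling (-0.025 over all features), -0.19 with the slide as a block (-0.08 over all features) and -0.21 within slide 1. Against the host mRNA, the counts above and below were 1531 and 559 with normexp and quantile scaling, 255 and 278 with the slide as a block, and 169 and 136 with the replicate block; without contusion replicates 1 and 2 they were 275 and 143. At a limit of 100 kb the smaller set held 99 higher and 629 lower with a median of -0.23, and 174 above and 100 below the host mRNA. The replicate block gave 303 higher and 1355 lower, and whether the replicate numbers pair the samples is not known. Of 74 named long circRNAs 60 were called. Among settings in which they were tested, 7 changed side in at least 1 and 0 reversed. With probes required to be well above background on all 8 arrays, only 62 of the 74 were tested. The share of lower calls in the classes of 50 to 100, 100 to 200 and at least 200 kb was 34.9%, 40.8% and 48.0% with normexp and quantile scaling and 31.4%, 39.2% and 46.1% with the slide as a block. With normexp and quantile scaling the 10 largest increases measured 0.13 to 1.46 and the 10 largest decreases -0.77 to -0.13, and all 20 stayed called. The causes of these changes were not tested. Slide 1 holds a single contusion array and slide 2 a single control array, so differences within a slide have no spread on one side. Probes near background limit the bounds given for Diaph3, Mctp1 and chr5:99680658-99735999.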
